A study of Mus musculus with 2 samples.

Results

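Cells with transcripts of both Pi16 and Dpt were selected from sections of subcutaneous mouse tumours measured with Xenium In Situ, which decodes single RNA molecules in tissue and assigns them to segmented cells. A cell was kept when it held 40 or more gene counts, at least 1 count of Pi16 and of Dpt, no count of Ptprc, Pecam1 or Krt5, and at most 1 count of Epcam. The excluded genes mark leukocytes, endothelium, basal squamous cells and epithelium. This gate held 3381 of 516855 segmented cells, of which 2383 lay in the section labelled EKP and 998 in the section labelled RKP. The selection used measured counts, so levels of those 6 genes in the gated cells are a description of the gate.

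The tumours grew from cultured mouse lines named EKP and RKP and are labelled as diffuse gastric cancer, in a study of a mutant RHOA. The labels neither spell out these letters nor say which line carries the mutant. For both groups, flat-cultured cells in an equal mixture with Matrigel, a gel of basement membrane proteins, were placed beneath the skin of both flanks in C57BL/6 mice aged 5 weeks, and tumours of comparable end size were collected. A single paraffin block carried both tumours on 1 slide, so there was 1 section per group, no replicate and no p-value. The mice had their own stroma and immune system, and the tumours grew beneath flank skin, not in the stomach wall. All differences below are between these 2 sections, 2-fold served as a rule of size, and every interval is a 95% interval that covers counting error only.

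Pi16 encodes peptidase inhibitor 16 and Dpt encodes dermatopontin, a small matrix protein that binds collagen. Together they mark the fibroblasts of the adventitia, the loose connective tissue around vessels and organs, and of the fascia beneath the skin. Such cells are known in mouse and human tissues as a reservoir from which other fibroblast states can arise, and they typically express matrix glycoproteins, complement components and inhibitors of proteases. Contractile fibroblasts and myofibroblasts form a contrasting state, with smooth-muscle actin and related genes.

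The panel held 479 genes and 20 negative control probes. Gated cells had a median of 153 gene counts in EKP and 136.5 in RKP, against 165 in all other cells with 40 or more counts of either section, and 396723 and 149756 gene counts in all. In EKP 38.0% of cells lay under 40 counts, in RKP 8.07%, so shares below are given over cells at or above 40 counts and also over all cells. Levels are counts per 1000000 gene counts (CPM) summed over the cells named. The matrices shared 19 cell barcodes between sections, none of them gated. Segmentation can assign a neighbour's transcripts to a cell, and positions of cells were not used here.

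The markers other than the gate genes were high in the gated cells of both sections. Lum, the collagen-binding proteoglycan lumican, measured 39589 CPM in EKP and 39698 CPM in RKP, against 6871 and 4733 in all other cells. Serpina3n, a secreted serine protease inhibitor, stood at 23228 and 22824 CPM, against 1506 and 724. Mfap5, a protein of elastic microfibrils, stood at 7877 and 6023 CPM, against 2167 and 891. All 3 were thus at least 3.64-fold above the other cells in each section, while Pi16 stood at 13622 and 15452 CPM and Dpt at 18136 and 15846 CPM by selection.

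Cells with a count of Serpina3n were far more common inside the gate than among cells with high Epcam. Serpina3n was found in 84.7% of gated cells in EKP and 83.1% in RKP, and in 1.42% and 0.668% of cells with 5 or more Epcam counts, which had deeper medians of 261 and 241 counts. With each cell thinned to 40 counts, the gated shares were 54.4% (52.4 to 56.4) and 54.7% (51.6 to 57.8), against 0.229% and 0.128% in those epithelial cells. The gap was smaller to Dpt-positive cells without Pi16 under the same limits, whose thinned shares were 31.5% in EKP and 28.8% in RKP. For Lum the thinned shares were 71.8% and 71.0% of gated cells, against 52.5% and 48.9% of those Dpt-positive cells. For Mfap5 they were 23.7% and 17.6%, against 20.5% and 9.69%. C3, the central complement component, was less restricted. It was detected in 74.9% and 63.2% of gated cells, but also in 20.6% of EKP and 46.3% of RKP cells with 5 or more Epcam counts.

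Of the 28 adventitial fibroblast genes listed for this work, 8 were on the panel, and of 8 listed genes of parenchymal fibroblasts none was, so the latter state could not be set against the gate. Of the 6 adventitial genes that were no gate genes, 4 were at least 2-fold higher in gated cells than in all other cells in both sections, namely Lum, Mfap5, Serpina3n and Igfbp6, a binding protein of insulin-like growth factors. Over the whole panel 49 of 398 genes (12.3%) met that rule. Ly6c1, a surface protein of the Ly6 family, was 1.19-fold and 1.60-fold higher. Ackr3, a scavenging chemokine receptor, stood at 4638 against 4655 CPM in EKP and at 4394 against 2432 in RKP. These comparisons describe the gate, since the cells were chosen by genes that accompany these.

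**Figure D1:**
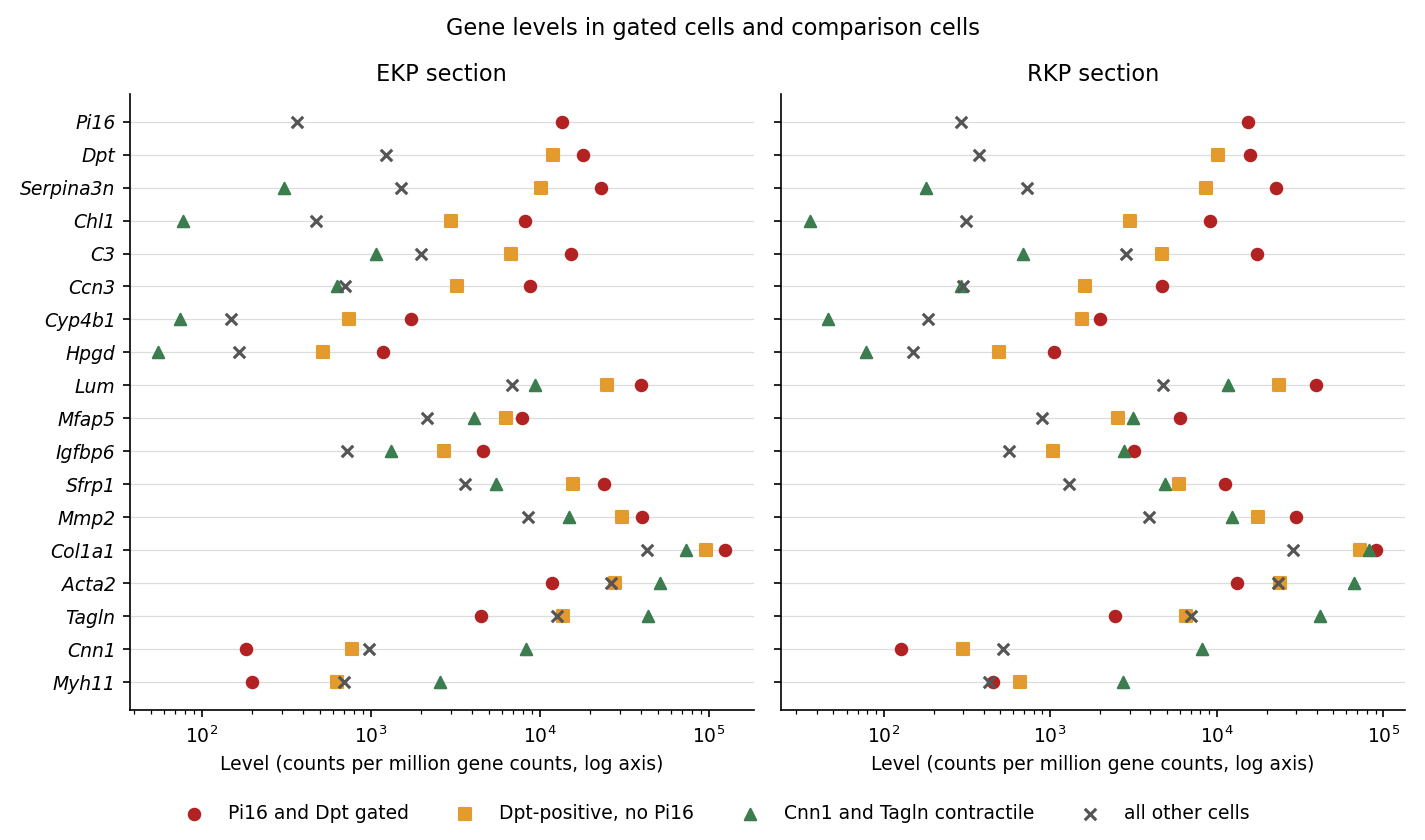
Levels of 18 genes in the EKP (left) and RKP (right) section, as CPM on a log axis, in the Pi16 and Dpt gated cells, in Dpt-positive cells without Pi16, in Cnn1 and Tagln contractile cells and in all other cells with 40 or more counts. Each point is 1 sum over the cells of 1 section with no error bar, a level of 0 (set by the selection for Pi16 and Dpt) is not drawn, and Serpina3n in gated cells lies at 23228 CPM in EKP and 22824 in RKP, right of every comparison.

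Gated cells were a small share of both sections and a larger one in EKP. Of cells with 40 or more counts, 1.47% were gated in EKP (Clopper-Pearson 1.41 to 1.53) and 0.424% in RKP (0.399 to 0.452), which gives a 3.47-fold larger share in EKP (3.22 to 3.74). Over all segmented cells the shares were 0.913% and 0.390%, a ratio of 2.34. Over all cells with 40 or more counts, detection of Dpt differed more between sections than detection of Pi16. Any Dpt count was present in 14.2% of cells in EKP and 5.09% in RKP, and any Pi16 count in 6.22% and 4.63%. Those cells included ones outside the limits of the gate. Among cells with 5 or more Epcam counts, Pi16 was detected in 0.834% in EKP and 1.69% in RKP.

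Among Dpt-positive cells within the same limits on other cell types, the gated share was 26.1% in EKP (25.2 to 27.0) and 23.0% in RKP (21.8 to 24.3). These Dpt-positive cells were themselves 5.64% and 1.85% of cells, a ratio of 3.05. Of cells with Pi16, 51.5% also had Dpt in EKP and 22.9% in RKP, whereas 22.6% and 20.8% of cells with Dpt had Pi16. Requiring no count of 12 striated muscle genes (described below) changed the ratio of gated shares to 4.90, and requiring in addition no Epcam and no Krt8 changed it to 5.59.

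The limits of the gate removed many double-positive cells. Of 5185 EKP and 2490 RKP cells with Pi16 and Dpt, a count of another cell type left out 2802 (54.0%) and 1492 (59.9%), and Ptprc alone left out 48.2% and 50.8%. Without those limits the ratio of shares between sections was 3.02. Just outside the depth limit, 74 EKP and 49 RKP cells with 20 to 39 counts met all other conditions, and just inside it 130 and 83 gated cells had 40 to 59 counts. At the Epcam limit, 161 and 71 gated cells had 1 count, and 16 and 11 cells were left out with 2 counts. Pi16 stood at exactly 1 count in 50.9% and 56.4% of gated cells, and its highest count in a cell was 23 in both sections.

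Transcripts of other cell types remained inside the gate. Mrc1, the mannose receptor of macrophages, had a count in 43.6% of gated cells in EKP and 45.2% in RKP, and Cd68, a lysosomal protein of macrophages, in 29.0% and 24.3%. Csf3r, a neutrophil receptor, was detected in 19.0% and 15.8%. Krt8, a keratin of simple epithelium, was detected in 6.21% and 13.4%, against 61.9% and 69.4% of all other cells. The 6 listed epithelial genes summed to 2253 and 3913 CPM in gated cells, against 91894 and 93103 in all other cells, with a range of 1111 to 3893 CPM in EKP and 1476 to 11571 in RKP over those parts, of 10 successive parts of the file, that held 20 or more gated cells. The 8 listed macrophage genes summed to 17776 and 20133 CPM, against 29060 and 39963. Their part in the results below was not tested, except where values without such cells are given.

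Ranked by the smaller of the ratios in the 2 sections, an adhesion molecule, a protease inhibitor, a matricellular protein and a monooxygenase stood furthest above all other cells. Chl1, a neural adhesion molecule of the L1 family, measured 8200 CPM in EKP and 9088 CPM in RKP, 17.3-fold and 29.0-fold above the other cells. Serpina3n, described above, followed at 15.4-fold and 31.5-fold. Ccn3, a matricellular protein, stood at 8752 and 4728 CPM, 12.3-fold and 15.8-fold above. Cyp4b1, a cytochrome P450 monooxygenase, stood at 1734 and 1997 CPM, 11.5-fold and 10.8-fold above. Hpgd, the main enzyme of prostaglandin breakdown, was 7.04-fold and 7.07-fold above, Reg3g, an antimicrobial lectin, 7.22-fold and 12.5-fold, and Fxyd1, a regulator of the sodium pump, 6.52-fold and 10.2-fold. The 10 genes with the largest smaller ratio also held Sfrp1, Thbs4 and the melanocyte gene Mlana, the last on 109 and 17 counts.

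The 7 measured matrix genes, Dpt included, summed to 311268 CPM in EKP gated cells and 248417 CPM in RKP gated cells, against 112190.0 and 67110.3 in all other cells. Of the 6 measured matrix genes that were no gate genes, 5 were at least 2-fold above all other cells in both sections, against 12.3% of all genes, and 1 was below. Col1a1, the main fibrillar collagen chain, measured 125493 CPM in EKP and 91048 CPM in RKP, 2.89-fold and 3.16-fold above. Mmp2, a gelatinase, stood at 40398 and 29969 CPM, 4.72-fold and 7.61-fold above. Bgn, the proteoglycan biglycan, was 2.18-fold and 2.76-fold above. The member below was Acan, the cartilage proteoglycan aggrecan, at 318 and 300.5 CPM against 13509 and 4629 CPM in all other cells.

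Of the 6 measured complement and inflammatory genes, C3 and Serpina3n were at least 2-fold above all other cells in both sections, again against 12.3% of all genes. C3 stood at 15323 and 17488 CPM, 7.69-fold and 6.12-fold above. The chemokines Ccl12 and Ccl9 were not: Ccl12 was 1.30-fold and 2.27-fold above, and Ccl9 stood at 5500.1 against 5639 CPM in EKP and at 7205 against 11390 in RKP. Of 4 measured genes of WNT signalling 1 met the rule, a count too small to set against that share. It was Sfrp1, a secreted antagonist of WNT ligands, at 24070 and 11232 CPM, 6.61-fold and 8.62-fold above.

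Setting gated cells against Dpt-positive cells without Pi16 asked what accompanies Pi16 among cells of the same gate. There were 6746 such cells in EKP and 3342 in RKP, with medians of 132 and 120 counts. Of 364 genes, 7 (1.92%) were at least 2-fold higher in gated cells in both sections, with a median of -0.45 and -0.29 on the log2 scale over all genes: C3, Ccn3, Chl1, Hpgd, Mlana, Prss23 and Serpina3n. Chl1 was 2.73-fold higher in EKP and 3.01-fold in RKP, Ccn3 2.69-fold and 2.90-fold, C3 2.27-fold and 3.73-fold, and Serpina3n 2.28-fold and 2.63-fold. Prss23, a secreted serine protease, was 2.17-fold and 2.45-fold higher. Col1a1 differed little, at 125493 against 96298 CPM in EKP and 91048 against 72849 in RKP.

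In the other direction 49 of 364 genes (13.5%) were at least 2-fold lower in gated cells in both sections. All 5 measured proliferation genes were among them, and so were 4 of 5 epithelial genes outside the gate, whereas with median-ratio scaling the 17 genes still 2-fold lower held no proliferation gene and, of those epithelial genes, Krt8 and Krt19. Mki67, a nuclear protein of cycling cells, stood at 1127 against 2718 CPM in EKP and at 2130 against 5345 in RKP. Top2a, the topoisomerase of dividing cells, stood at 1023 against 2835 and at 1863 against 5188. Krt8 stood at 824 against 4752 CPM and at 2337 against 9851. Sox2, a transcription factor of stem cells, stood at 466 against 2157 and at 2204 against 9576, Msln, mesothelin, at 365 against 2490 and at 1376 against 5737, and the growth factor gene Bmp2 at 166 against 668 and at 387 against 1939.

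With Epcam 0 and Krt8 0 on both sides, none of the 7 genes reached 2-fold in both sections, and the smaller log2 difference of the sections ranged from 0.50 for Hpgd to 0.93 for Ccn3. Each of the 7 was still above the comparison cells in both sections. The count of 7 higher and 49 lower genes became 24 and 17 when each comparison was scaled by its median ratio, which moved all genes by that median. A gate set on cells thinned to 40 counts kept only Ccn3 of the 7, with smaller log2 differences of 0.88 for Serpina3n and 0.84 for Chl1.

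Contractile cells were the next comparison. They were chosen by Cnn1, calponin, and Tagln, transgelin, without Pi16 and Dpt under the same limits. They numbered 4816 in EKP and 3730 in RKP, with medians of 212 and 186 counts. Gated and contractile cells were thus chosen on opposite conditions for Pi16 and Dpt, so the values below describe both selections. Dpt-positive cells share Dpt with the gate, so the sizes of these 2 contrasts cannot be set against each other. Of 360 genes, 62 (17.2%) were at least 2-fold higher in gated cells in both sections and 44 (12.2%) at least 2-fold lower, and 44 and 71 when levels were taken per cell. Chl1 was 105-fold and 253-fold higher and Serpina3n 75.3-fold and 127-fold higher, being detected in 5.67% and 2.17% of contractile cells. Cyp4b1 was 23.4-fold and 42.8-fold higher, C3 14.2-fold and 25.4-fold, and Ccn3 13.7-fold and 16.1-fold.

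Of the 6 matrix genes outside the gate, Lum and Mmp2 were at least 2-fold higher than in contractile cells in both sections, against 17.2% of all genes. Lum was 4.20-fold and 3.41-fold higher and Mmp2 2.71-fold and 2.42-fold, but with levels per cell or median-ratio scaling Mmp2 did not reach 2-fold in both sections. Mfap5 was 1.91-fold higher in both sections. Col1a1 was 1.70-fold higher in gated cells of EKP and 1.11-fold in RKP, and Bgn was 1.10-fold higher in EKP and 0.767 times the contractile level in RKP. Krt8 was detected in 57.6% of contractile cells in EKP and 43.5% in RKP. Of the 5 epithelial genes outside the gate, 4 were at least 2-fold lower in gated cells, against 12.2% of all genes. With Epcam 0 and Krt8 0 on both sides, 61 genes were higher and 46 lower. The part of epithelial transcripts in this comparison was not tested further. Among lower genes, Acta2, smooth-muscle actin, stood at 11895 CPM in EKP gated cells and 13215 in RKP, 0.229 and 0.197 times the contractile level. Myh11, smooth-muscle myosin, stood at 0.0770 and 0.166 times, and Myl9, a myosin light chain, at 0.166 and 0.0885 times. Itga8, an integrin of contractile mesenchyme, stood at 0.118 and 0.116 times.

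Within the gate, other genes varied with the Pi16 count. Cells with 1, 2 and 3 or more Pi16 counts numbered 1213, 531 and 639 in EKP and 563, 187 and 248 in RKP, and their median depth was 136, 156 and 186 counts in EKP and 119, 139 and 191.5 in RKP. Of 92 genes with 300 or more counts in the gated cells of each section, 19 were higher at each step of Pi16 in both sections and 32 were lower at each step. The former included the 4 adventitial genes Lum, Mfap5, Igfbp6 and Serpina3n, and also Ly6c1 and Ackr3.

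Ly6c1 stood at 3779, 4654 and 6335 CPM across the 3 classes in EKP and at 2756, 4471 and 6381 in RKP. C3 stood at 13053, 14859 and 19021 CPM in EKP and at 12177, 19083 and 24639 in RKP. Chl1 stood at 6834, 8321 and 10136 CPM and at 7534, 9160.0 and 11403. The 32 lower genes included the contractile genes Acta2 and Tagln, Krt8 and the macrophage genes Cd68, Mrc1, Mpeg1 and Itgam, and also broadly expressed genes such as Rps18, Rps28 and Akt1. Tagln stood at 6535, 3757 and 2074 CPM in EKP and at 3652, 2544 and 576 in RKP, Krt8 at 1073, 908 and 395 and at 3584, 2036 and 618, and Cd68 at 3202, 3039 and 1606 and at 2634, 2290.0 and 1585.

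Depth moved with these classes. Among cells with at least 100 and fewer than 200 counts, whose medians were 143 and 152 counts in EKP and 138 and 152 in RKP, the highest Pi16 class was above the lowest by 1.52-fold and 2.01-fold for Ly6c1, by 1.28-fold and 1.87-fold for C3, and by 1.21-fold and 1.33-fold for Chl1. Tagln stood at 0.417 and 0.188 times the lowest class there. Col1a1 was nearly flat over all cells, at 1.08 times in EKP and 0.958 times in RKP. These are descriptions, since Pi16 chose the cells.

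**Figure D2:**
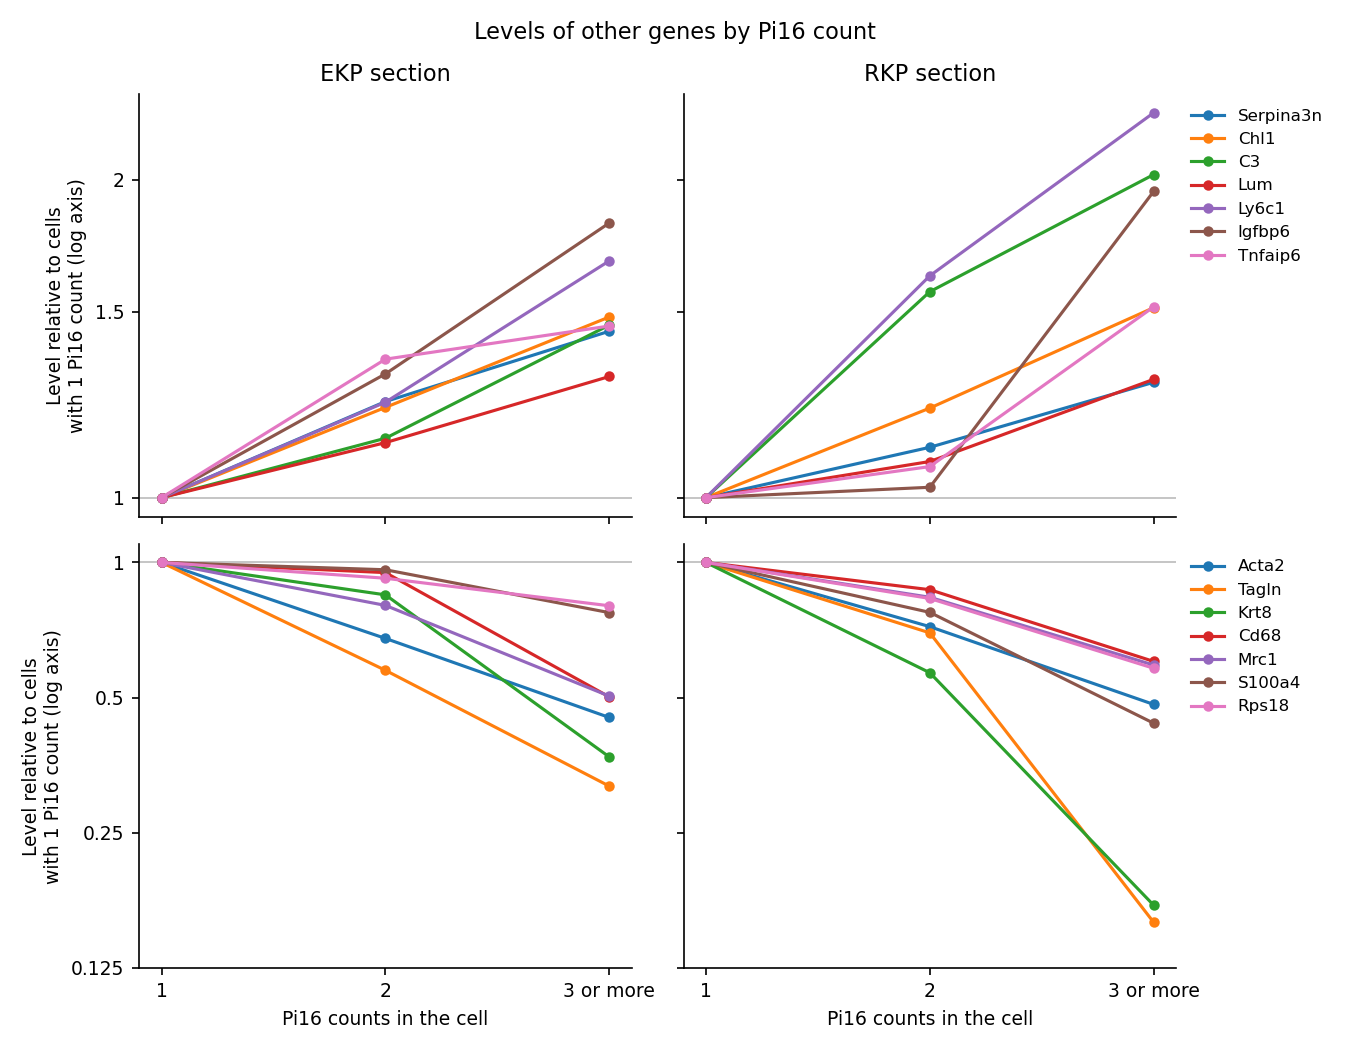
Levels of 14 genes in gated cells with 1, 2 and 3 or more Pi16 counts, relative to cells with 1 count, on log axes that differ between rows. Each point is 1 sum over the cells of a class in 1 section, with no error bar; upper panels hold genes that were higher at each step in both sections, such as Ly6c1 (1.68-fold in EKP and 2.32-fold in RKP from the lowest to the highest class), and lower panels genes that were lower at each step, such as Tagln (0.317 and 0.158 times).

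The gated cells of the sections were then compared with each other. Kept were 359 genes with more counts than the brightest negative control probe of the same cells in at least 1 section. Of these, RKP was at least 2-fold above EKP in 101 (28.1%) and EKP above RKP in 18 (5.01%), and the median gene was 0.37 higher in RKP on the log2 scale. Scaled by the median ratio, the counts were 77 and 34. Many of the 101 had few counts: with 100 or more counts required in the higher section, 38 of 194 genes were higher in RKP and 8 higher in EKP. Of the genes far above all other cells, some were close between sections and others were not. Lum differed by 1.00-fold (RKP over EKP, 0.973 to 1.03), Serpina3n by 0.983-fold (0.945 to 1.02), Chl1 by 1.11-fold (1.04 to 1.18) and C3 by 1.14-fold. Ccn3, Sfrp1 and Thbs4 were further apart. With each cell thinned to 40 counts, they were detected in 22.4%, 53.0% and 3.61% of EKP gated cells. In RKP gated cells the shares were 16.2%, 29.6% and 10.8%. None of the 6 adventitial genes and none of the 6 matrix genes passed 2-fold, and the matrix genes had a median log2 of -0.33.

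**Figure D3:**
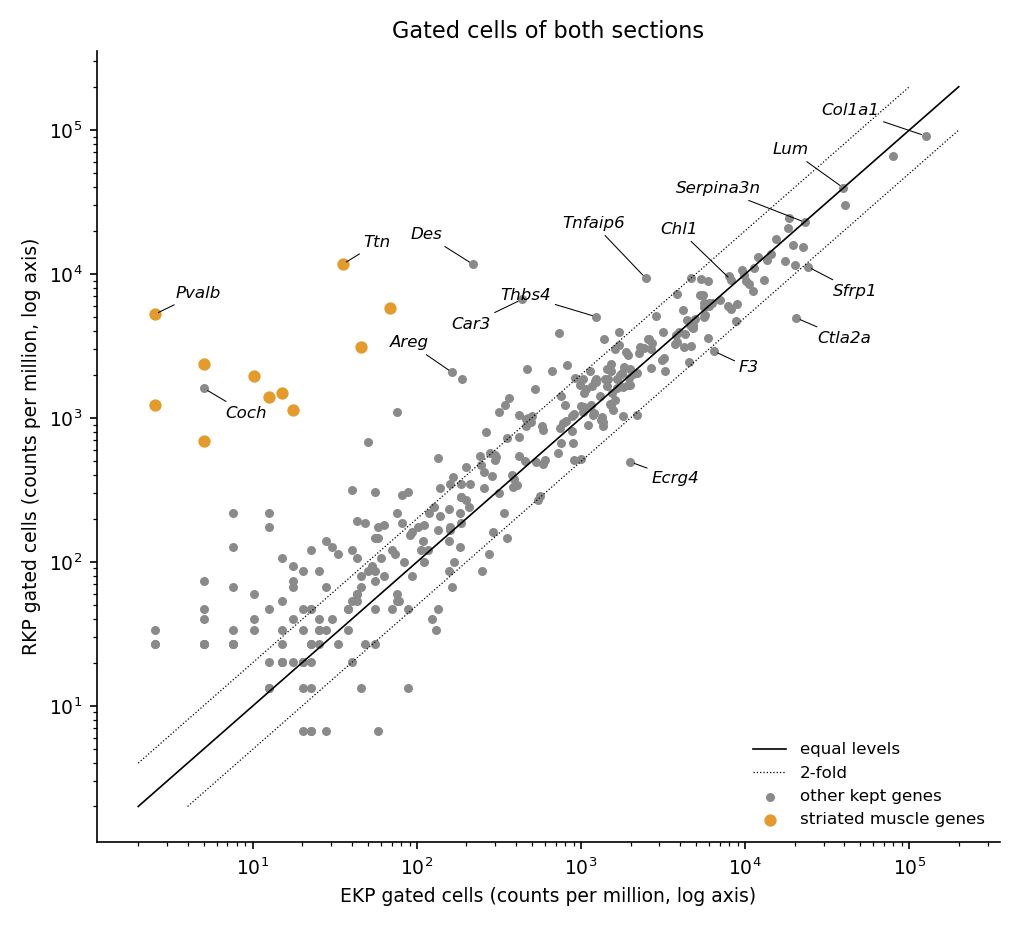
Level of each kept gene in EKP gated cells (x axis) and RKP gated cells (y axis), as CPM on log axes, with lines for equal levels and 2-fold. Each point is 1 gene without error bar, genes with no count in a section are not drawn, and the striated muscle genes (orange, all of the 12 but Cox8b, which had no count in EKP) lie far above the line, for example Ttn at 35.3 CPM in EKP and 11706 in RKP.

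Of the 10 genes most raised in RKP relative to EKP and at least as high in gated as in other cells, 9 belong to striated muscle. Ttn, titin, had 14 counts in EKP and 1753 in RKP, and its level was 332-fold higher in RKP (197 to 608). Pvalb, the calcium buffer parvalbumin of fast muscle, had 1 and 786 counts, and Actn3, the fast-fibre actinin, had 18 and 469. The others were Trdn, Myf6, Pgam2, Myoz1, Hrc and Pygm, which serve calcium release, muscle identity, glycolysis, the Z-disc, calcium storage and glycogen use.

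These transcripts came from a limited set of cells. Of RKP gated cells, 316 (31.7%) had a count of any of 12 striated muscle genes, against 82 (3.44%) of EKP gated cells and 6.61% and 6.86% of all cells with 40 or more counts. Along the file, cut into 10 parts of equal number of segmented cells, part 4 of RKP held 365 of the 998 gated cells and 81.0% of the muscle-positive ones. In that part 70.1% of gated cells were muscle-positive, against at most 32.3% in any other part. The muscle genes were chosen after their values were seen, and whether the transcripts were made by the gated cells or by fibres next to them was not tested.

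**Figure D4:**
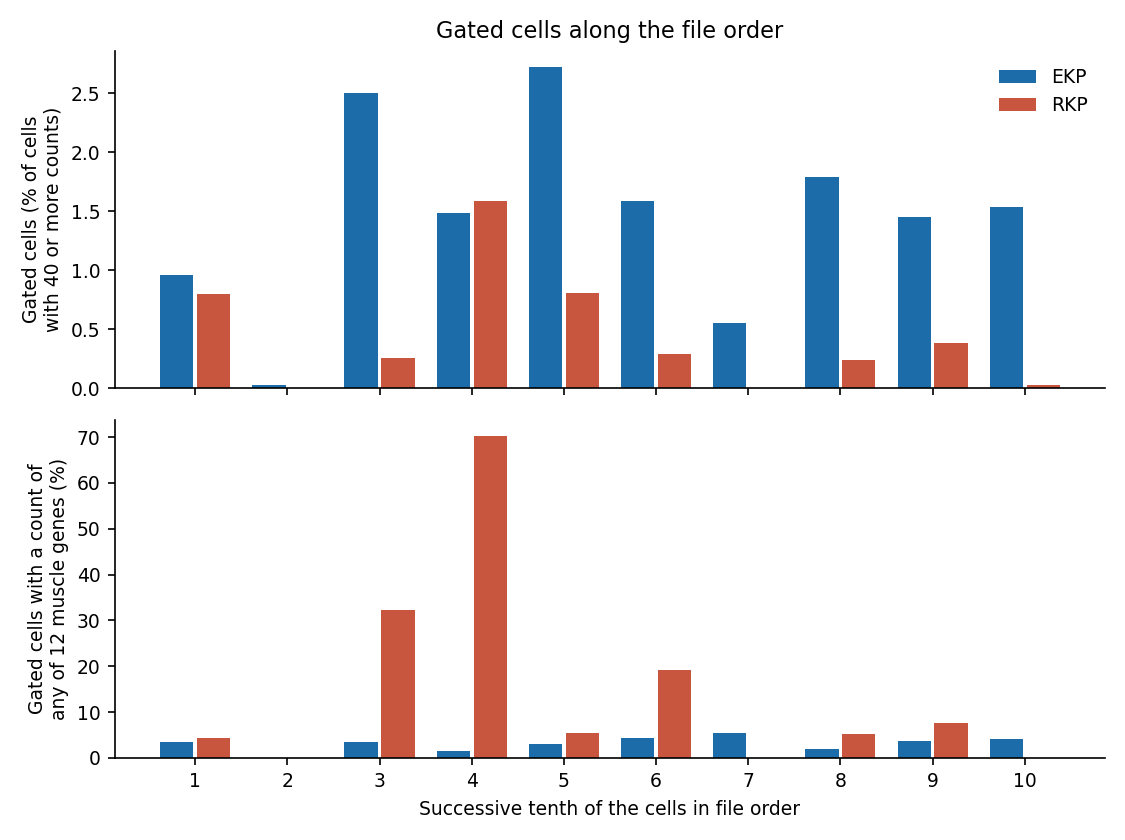
Top, gated cells as a percentage of cells with 40 or more counts in 10 successive parts of each file; bottom, percentage of gated cells with a count of any of 12 striated muscle genes, for EKP (blue) and RKP (red). Bars are single values, the lower panel shows parts with 20 or more gated cells, and parts are not replicates; RKP part 4 holds the highest RKP share (1.58%) and 70.1% muscle-positive cells, and RKP parts 2 and 7 hold no gated cell.

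Some genes moved with the muscle genes among the RKP gated cells. Thbs4, thrombospondin 4 of tendon and muscle matrix, stood at 11178 CPM in muscle-positive and 1487 CPM in muscle-free cells. Car3, the carbonic anhydrase of muscle and fat, stood at 14910 and 1888 CPM, and Des, desmin, at 30438 and 812. Pi16 itself stood at 20990.0 and 12244 CPM. Fxyd1 stood at 3532 and 939 CPM and Igfbp6 at 4551 and 2373. Lower in muscle-positive cells were Coch, the secreted protein cochlin, at 346 against 2331 CPM, Reg3g at 510 against 2373 and Hp, the haemoglobin-binding haptoglobin, at 3950.4 against 14522.

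Leaving the muscle-positive cells out lowered the differences in Thbs4, Car3 and Des, but not in every gene named above. Fxyd1 was at least 2-fold higher in EKP once those cells were left out, which it was not over all gated cells. Thbs4 was 4.07-fold higher in RKP (3.63 to 4.57) over all gated cells, at 1238 and 5042 CPM, and 1.19-fold in muscle-free cells. Car3 was 15.3-fold higher (13.0 to 18.1) over all gated cells, at 436 and 6664 CPM, and 4.32-fold in muscle-free cells. Des was 53.3-fold higher over all gated cells and 3.98-fold in muscle-free cells.

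Tnfaip6 was higher in RKP in each set of gated cells described here. It encodes TSG-6, a hyaluronan-binding protein made in inflammation. It measured 2480 CPM in EKP and 9342 CPM in RKP, a 3.77-fold difference (3.47 to 4.09), and was detected in 26.6% and 47.9% of gated cells, against 2.65% and 1.99% of cells with 5 or more Epcam counts. The rise was not particular to the gate, since Dpt-positive cells without Pi16 had Tnfaip6 in 19.0% and 29.1%. The ratio was 3.87 in muscle-free cells and 4.30 in cells that also lacked Krt8. In all other cells it stood at 476 and 582 CPM. Eng, endoglin, a co-receptor of the TGF-beta family, stood at 1709 and 3933 CPM, 2.30-fold higher (2.06 to 2.57), and 2.61-fold in cells without muscle genes and Krt8. Endothelium also expresses Eng. The 7 listed genes of blood endothelium, Eng included, summed to 2992 CPM in EKP and 6284 CPM in RKP, over parts from 2551 to 3991 and from 4644 to 8298, with Pecam1 at 0 by selection and Kdr, a VEGF receptor, in 3.23% and 5.11% of gated cells. Their part in the result was not tested.

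Of the 8 macrophage genes, Retnla and Arg1 were at least 2-fold higher in RKP, near the 28.1% of all genes, and the median of the list was 0.15 on the log2 scale. Retnla, a secreted protein of alternatively activated macrophages, stood at 527 and 1589 CPM, 3.02-fold higher (2.49 to 3.65), and 3.75-fold without muscle genes and Krt8. Arg1, arginase of such macrophages and of some tumour cells, stood at 660 and 2123 CPM, 3.22-fold higher (2.72 to 3.80). Comp, a cartilage and tendon matrix protein that is on none of the lists, stood at 265 and 795 CPM, 3.00-fold higher (2.29 to 3.94). Wif1, a WNT inhibitor, had 3 counts in EKP and 33 in RKP.

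Areg and S100a4 were higher in RKP, and among RKP gated cells they were higher in those with Krt8. Areg, the EGF receptor ligand amphiregulin, stood at 164 and 2070 CPM, 12.6-fold higher in RKP (9.64 to 16.8), but at 2969 and 3782 CPM in all other cells. In RKP gated cells with Krt8 it stood at 11220 CPM and in those without at 256. In cells without muscle genes and Krt8 it was 9.09-fold higher in RKP, at 31.5 and 286 CPM. Those cells held 349306 gene counts in EKP and 73384 in RKP, so this ratio rests on few Areg counts. S100a4, a calcium-binding protein of motile cells, stood at 4653 and 9369 CPM, 2.01-fold higher (1.88 to 2.16). It stood at 26395 CPM in RKP gated cells with Krt8 and 5993 without, and the ratio between sections was 1.67 in cells without muscle genes and Krt8. Tspan8, a tetraspanin of epithelium, had 30 and 166 counts, and Krt79, Cldn2 and Tbx1 had 19, 11 and 10 counts in RKP.

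Fewer genes were higher in EKP, and 8 of them had 100 or more counts there. Ctla2a, an inhibitor of cysteine proteases, measured 20485 CPM in EKP and 4948 CPM in RKP, 4.14-fold higher in EKP (3.84 to 4.47), and was detected in 74.4% and 34.5% of gated cells, against 23.2% and 27.5% of cells with 5 or more Epcam counts. With each cell thinned to 40 counts, the gated shares of Ctla2a were 44.7% and 15.9%, against 5.38% and 9.85%. Dpt-positive cells without Pi16 also differed, with thinned shares of 30.8% in EKP and 10.9% in RKP. Ecrg4, the precursor of the secreted peptide augurin, stood at 1999 and 494 CPM, 4.05-fold higher (3.18 to 5.21). F3, tissue factor, which starts coagulation, stood at 6433 and 2911 CPM, 2.21-fold higher (2.00 to 2.45). Sfrp1 was 2.14-fold higher (2.03 to 2.26). Without muscle genes and Krt8, the EKP over RKP ratio was 4.07 for Ctla2a, 2.66 for Ecrg4, 2.16 for F3 and 1.72 for Sfrp1.

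The same genes were also higher in EKP outside the gate. Ctla2a stood at 5918 and 3436 CPM in all other cells of EKP and RKP, Ecrg4 at 872 and 284, F3 at 1814 and 1402 and Sfrp1 at 3640 and 1303. Whether the sections differed more in gated cells than elsewhere has no test with 1 section each. The keratinocyte protein Sbsn had 870 counts in EKP gated cells and 157 in RKP gated cells. Cd5l, Chga, Rab3b, Mlana, Lrp2, Muc2, Stfa2l1, Apoc2 and Gpa33 were higher in EKP on at most 109 counts.

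The other gene lists held few members on the panel, too few for a count to be set apart from the 28.1% of all genes that were at least 2-fold higher in RKP. Of 4 kept T cell genes 3 were higher in RKP, of 4 squamous genes 3, of 2 adipocyte genes 2, and of 6 blood endothelial genes 3. The T cell counts were low, with Cd3e at 55 counts in EKP and 49 in RKP, and of the squamous genes Krt79 had 3 and 19. Of 5 proliferation genes 1 was at least 2-fold higher in RKP, and their sum was 4411 CPM in EKP and 8280.1 in RKP, against 14708.5 and 19072 in all other cells. Of 3 hypoxia genes 1, the angiogenic growth factor Vegfa, was higher in RKP, and the sum was 10760.7 and 13789 CPM. Of 3 hedgehog and BMP genes 1, Bmp2, was higher in RKP. Of 3 lymphatic genes 2 were higher in RKP, at a sum of 587 and 1816 CPM. Neither of 2 caveola genes and none of 3 mesenchymal transcription factor genes passed 2-fold between sections.

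Coch was the gene outside striated muscle with the largest ratio toward RKP. It had 2 counts in EKP gated cells and 240 in RKP, at 5.04 and 1603 CPM, and was detected in 6.91% of RKP gated cells against 0.769% of all other RKP cells. Among RKP cells with 5 or more Epcam counts 0.172% had it. Among Dpt-positive cells without Pi16 0.178% had it in EKP and 2.99% in RKP. It was not spread evenly. Of 58 gated cells in part 8, 21 had Coch and the level was 9350 CPM, and of 91 in part 9, 27 had it and the level was 10233 CPM, against at most 969 CPM in the other 5 parts with 20 or more gated cells.

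Gated cells of those parts differed in further genes. C3 stood at 2221 CPM in part 8 and 2047 in part 9, against 11377 to 35142 in the other RKP parts and 11288 to 23029.6 in EKP parts. Mfap5 stood at 1403 and 1602 CPM, against 4514 to 7589 in the other RKP parts. S100a4 was high, at 21155 and 16284 CPM, but was also high in part 5 at 16253. Krt8 was detected in 43.1% and 15.4% of the gated cells of parts 8 and 9, against 4.84% to 24.5% in the other RKP parts, and its part in these levels was not tested.

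Variation along the file was wide in both sections. The gated share ranged from 0.0277% to 2.72% over EKP parts and from 0% to 1.58% over RKP parts, and 9 EKP and 7 RKP parts held 20 or more gated cells. How file order relates to position in the tissue is not given, and parts are not replicates. In 4 of 359 genes (1.11%) every RKP part lay above every EKP part, and in 2 (0.557%) every EKP part lay above every RKP part. The former were Tnfaip6, Eng, Tspan8 and Rb1, the retinoblastoma protein, and the latter Sfrp1 and Thbs1, thrombospondin 1. With levels scaled to total gene counts, Rb1 and Thbs1 did not reach 2-fold between sections. Tspan8 was detected in only 1 to 6 gated cells of each EKP part.

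Tnfaip6 ranged from 1819 to 3731 CPM over EKP parts and from 6018 to 15127 over RKP parts. Eng ranged from 1390.5 to 2194 and from 3171 to 5250.04. Sfrp1 ranged from 17676 to 33621 CPM in EKP and from 4983 to 14894 in RKP. Other large differences overlapped between parts. Ctla2a ranged from 7158 to 31669 CPM in EKP and from 2149 to 13138.5 in RKP, where a single part lay above 5173. Serpina3n covered nearly the same range in both sections, 13668 to 37204 and 12973 to 34390.1 CPM.

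**Figure D5:**
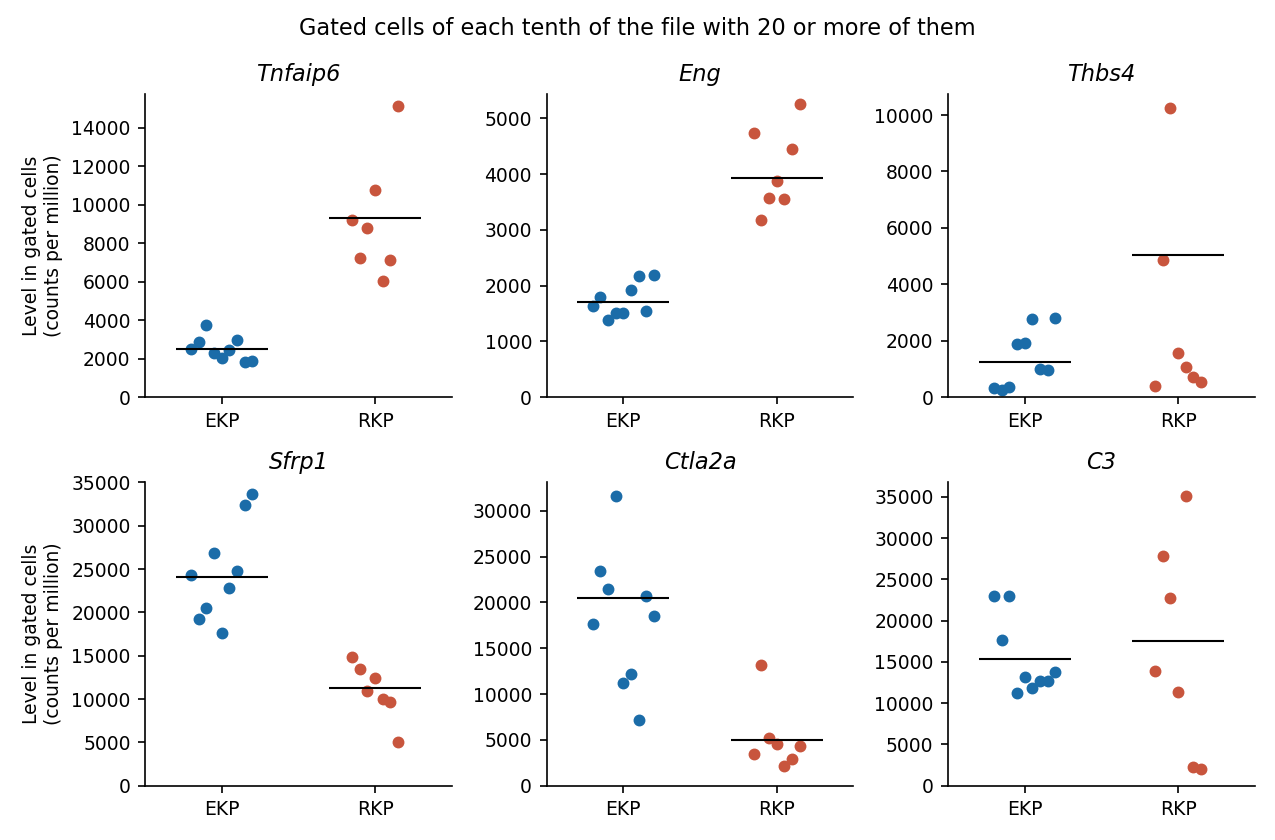
Level of 6 genes in the gated cells of each file part with 20 or more of them (9 EKP parts in blue, 7 RKP parts in red), as CPM on linear axes; points are shifted sideways only for visibility, horizontal bars are the level over all gated cells of the section, and parts are not replicates. Tnfaip6 and Eng do not overlap between sections and neither does Sfrp1, whereas Thbs4 is set apart in RKP by part 4 (10265 CPM) and C3 falls to 2047 and 2221 CPM in parts 9 and 8.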

How the data were processed

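Xenium In Situ counts of 479 genes came from 1 EKP and 1 RKP tumour section. The authors deposited raw transcript counts per feature and cell, without normalization; per the file headers the software was Xenium. The submitters' processing notes also list Seurat 4.4.0, whose use is unstated. No source used here gives how cells were segmented or any quality limit on transcripts. Doublets were not called.

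Counts were summed over the gated cells of a section and divided by their gene counts in all. Ratios carry exact conditional binomial intervals and shares Clopper-Pearson intervals, at 95%. A gene was compared when it exceeded the brightest negative control probe of the same cells on at least 1 side, and the level of that probe, but at least 3 counts, was the floor of both sides in the 2-fold rule. Genes were named as gate markers, as the 10 furthest above all other cells, as the 10 furthest apart between sections in each direction with up to 5 more that were higher in other cells, as the 8 furthest from Dpt-positive and contractile cells, and as list members; a gene that this rule chose is not reported here. All other genes named, such as S100a4, Hp, Comp, Ly6c1, Rb1 and Thbs1, were chosen after their values were seen, as were the 12 muscle genes. The gated cells, gene lists and comparisons were chosen with earlier results of these data known. Python 3.11.15, numpy 2.4.6, scipy 1.17.1 and pandas 2.3.3 were used, and the steps were tested on simulated data. No p-value was computed. Alternatives changed the limits of the gate, the depth limit, the scaling and the filter on low genes, and those on muscle genes and on 100 or more counts were chosen after seeing the data.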

Additional observations from a re-analysis of the deposited data

Results flagged for a closer look

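Cells outside the gate carried the signal that defines it. In EKP 91 cells and in RKP 56 cells under 40 counts met every other limit of the gate, and 2802 EKP and 1492 RKP cells with Pi16 and Dpt were left out because of a count of another cell type. Negative control codewords, which stand for no gene, gave 88 counts in EKP gated cells and 39 in RKP gated cells, summed over 41 codewords. The floor of 3 counts used above is for a single feature, so these sums cannot be set against it.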

How the results depend on the processing

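The ratio of gated shares, EKP over RKP, was 3.47 and stayed above 1 throughout. It was 3.90 with a Pi16 minimum of 2, 4.41 with a Dpt minimum of 2, 3.87 with 80 or more counts per cell, 3.04 with 20 or more, 3.02 without exclusion by other cell types, 3.76 with Epcam 0 and Krt8 0 and 3.16 with the gate on cells thinned to 40 counts. It was 4.90 without cells that had any of 12 muscle genes and 5.59 without Epcam and Krt8 in addition.

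Counts of genes moved more. The genes higher than in Dpt-positive cells without Pi16 numbered 7, and 2 with Epcam 0 and Krt8 0, 3 on thinned cells, 3 with every cell weighted alike, 1 without muscle genes, Epcam and Krt8, and 24 with median-of-ratios scaling, which left 17 of 49 lower genes. Median-of-ratios scaling also gave 34 genes higher in EKP in place of 18, and 80 genes above all other cells in place of 49. Scaling per cell gave 71 genes lower than in contractile cells in place of 44. Without muscle genes 11 genes were higher in EKP. With 100 or more counts required, 38 were higher in RKP in place of 101, 8 higher in EKP, and 38 above contractile cells in place of 62. The cause was not tested, except that fewer genes were tested under the last limit.

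Of 1364 values of named genes under alternatives, 3 reversed: Apoc2 changed from higher in EKP to a log2 of 0.056 in favour of RKP without exclusion and 0.27 on thinned cells, and Gpa33 to 0.42 without exclusion. A further 422 values moved and 939 did not. A value was called reversed only if it was at least 2-fold in the main setting and changed sign. Against other, Dpt-positive and contractile cells this required a change of sign in both sections, so a change in 1 section was not counted. Values that did not move lay within the counting interval of the main value, which is wide for genes with few counts. No paired analysis was possible because each group had 1 section and the labels give no shared replicate numbers. Depth limits genes with few counts, whose intervals are wide, and no setting stands in for a second section.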
